A study of Mus musculus with 8 samples.

Results

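The genes of the fetal serum proteins were followed in notochord-derived cells (NDCs) across formation of the nucleus pulposus (NP), the core of the intervertebral disc. The set holds 10 genes listed by symbol, Afp, Alb, Apoa1, Apoa2, Apob, Ttr, Fga, Fgb, Ahsg and Rbp4, out of 43346 gene identifiers in the count tables. All 10 had counts, and 8 passed the filter on low counts, while Ttr and Ahsg did not. The genes were chosen on their counts in these same samples, in mid-gestation embryos (E12.5) and newborn pups (P0), so their levels at both stages are given as a description, without a test.

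All samples came from Shh-cre;ROSA:YFP mice, in which cells that have expressed Shh, and their progeny, carry the fluorescent protein YFP, and each sample pooled the embryos or pups of 1 litter. Whole notochords were dissected at E12.5 (litters NDP10.2, NPD3, NPD4 and NPD9.2) and lysed without sorting. At P0 (litters NPD26, NPD27, NPD28, NPD30) NP cells were shaken out of the discs, strained and sorted for YFP, so stage and isolation method cannot be told apart. No other treatment or allele separated the groups, and the Cre driver also marks Shh-expressing cells outside the notochord.

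Serum proteins of the fetus are made mainly by hepatocytes of the fetal liver and by the endoderm of the visceral yolk sac, and are secreted into the blood. Afp, which encodes alpha-fetoprotein, is the fetal relative of Alb, which encodes serum albumin, and Afp is silenced in the liver after birth while Alb stays on. The other genes encode carriers of lipid (Apoa1, Apoa2, Apob), of thyroid hormone and retinol (Ttr, Rbp4), chains of the clotting protein fibrinogen (Fga, Fgb) and fetuin-A (Ahsg), a mineral-binding glycoprotein.

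Reads assigned to genes numbered 4442775 to 7180221 in the E12.5 libraries and 6371842 to 8904050 in the P0 libraries, and levels are in CPM, which scales each count to the library size after TMM adjustment. At these depths 3 counts, used as the floor, equal 0.351 to 0.733 CPM, which covers counting error only. Of the notochord markers, T was at 240.03 to 936 CPM at E12.5 against 570.1 to 2308 CPM at P0. Shh was at 418 to 1339 CPM at E12.5 against 0.156 to 11.7 CPM at P0, and Noto was below 1 CPM in all 8 litters. NPD4 was the lowest E12.5 litter for both T and Shh. Litters NDP10.2 and NPD9.2 had 16.3% and 17.5% of reads tallied as ambiguous between genes, against 7.07% to 11.6% in the other 6, and litter NPD30 had the lowest summed leukocyte marker level of the P0 litters.

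Alb and Afp lie side by side on mouse chromosome 5 in build GRCm38, Alb at chr5:90460897-90476602 and Afp at chr5:90490737-90508907, both on the plus strand, 14.1 kb apart with no protein-coding gene between them. Fga at chr3:83026076-83033627 and Fgb at chr3:83040141-83049863 are 6.51 kb apart and face in opposite directions. The others are scattered, with Apoa1 at chr9:46228580-46230466, Apoa2 at chr1:171225054-171226379, Apob at chr12:7977648-8016835, Ahsg at chr16:22891277-22899449 and Rbp4 at chr19:38116629-38125281. Ttr, whose sequence and position are not shown, lies apart from all of them, so the set is not 1 gene cluster.

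Promoters of 9 of the genes were read from RefSeq (GRCm38.p6), and the 250 bases before the start were searched on both strands for letters bound by liver transcription factors. Sequences of 4 genes are printed to let Alb and Afp, the neighbours of highest level, be compared with Apoa1 and with Rbp4, the member whose level stayed up at P0. Capitals mark the matches to TATAAA (the core promoter element), CAAAGTNCA (HNF4), TTGCNNAA (C/EBP) and TGTTTNC (FOXA), and each sequence runs 5′ to 3′ on the strand of its gene. They are Alb at chr5:90460620-90460869 (plus), Afp at chr5:90490464-90490713 (plus), Apoa1 at chr9:46228380-46228629 (plus) and, for the downstream of the 2 Rbp4 starts, chr19:38124812-38125061 (minus).
Alb: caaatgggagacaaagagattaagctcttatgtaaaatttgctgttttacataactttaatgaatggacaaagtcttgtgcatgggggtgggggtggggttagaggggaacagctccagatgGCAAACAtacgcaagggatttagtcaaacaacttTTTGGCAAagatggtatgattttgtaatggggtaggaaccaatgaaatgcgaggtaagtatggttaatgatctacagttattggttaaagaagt
Afp: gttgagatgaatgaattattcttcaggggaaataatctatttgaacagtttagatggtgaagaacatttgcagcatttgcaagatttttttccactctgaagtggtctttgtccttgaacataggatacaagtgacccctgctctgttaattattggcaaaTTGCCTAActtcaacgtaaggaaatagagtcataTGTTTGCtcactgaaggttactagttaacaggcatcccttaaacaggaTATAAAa
Apoa1: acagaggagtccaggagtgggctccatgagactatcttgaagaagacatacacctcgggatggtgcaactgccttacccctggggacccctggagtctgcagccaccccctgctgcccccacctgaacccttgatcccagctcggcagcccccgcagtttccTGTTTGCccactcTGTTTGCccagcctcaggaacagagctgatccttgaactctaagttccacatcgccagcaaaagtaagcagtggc
Rbp4: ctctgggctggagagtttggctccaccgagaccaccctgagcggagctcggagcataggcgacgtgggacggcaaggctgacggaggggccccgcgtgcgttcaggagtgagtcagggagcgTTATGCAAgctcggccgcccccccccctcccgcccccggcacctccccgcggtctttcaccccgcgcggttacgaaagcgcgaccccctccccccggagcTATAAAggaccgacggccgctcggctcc
TTGCNNAA stood 94 bases before the RefSeq start in Alb and 89 bases before it in Afp, and was found in 8 of the 9 genes, all but Apoa1, against 9.56% of all 32851 promoters searched. TGTTTNC was found in all 9 (17.8% of promoters), with 2 copies in Apoa1 at 88 and 75 bases before the start. TATAAA was found in 4, Afp, Apoa2, Apob and Rbp4 (12.4% of promoters), at unlike distances. It began 7 bases before the start in Afp, 60 in Apob and 212 before the downstream start of Apoa2. CAAAGTNCA was in none of the 9 (1.19% of promoters), which says only that these letters are not in this window. The printed Rbp4 promoter holds TATAAA 28 bases before the start and a C/EBP match 128 bases before it. A match is a description of the letters and not a bound site. The 2 starts of Apoa2 and of Rbp4 were both searched, and a gene counts if either start had a match. The 9 genes have 11 promoters, whereas the percentages count single promoters, so counts and percentages differ in unit. TTGCNNAA in Apoa2 and TGTTTNC in Rbp4 stood only before the upstream start, so the printed Rbp4 promoter holds no TGTTTNC.

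Afp and Alb, the members of highest mean CPM at E12.5, were close to the floor at P0. In NPD3, however, Rbp4 at 58.4 CPM was above Afp at 26.2 CPM and Alb at 10.3 CPM. Afp was counted 1355, 135, 1295 and 1495 times in the E12.5 litters NDP10.2, NPD3, NPD4 and NPD9.2, and 4, 2, 0 and 5 times at P0 (NPD26, NPD27, NPD28, NPD30). Every E12.5 litter was above every P0 litter, with NPD3 far below the other 3 at E12.5. The mean was 216 ± 155 CPM (SD, n = 4) at E12.5 and 0.416 ± 0.340 CPM (n = 4) at P0, a log2 difference of -7.80 ± 0.96 (SE). Summed over litters and scaled to depth, Afp was 527 times as frequent at E12.5 (95% exact interval 294 to 1057, counting error only).

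Alb was counted 797, 53, 273 and 1093 times at E12.5, and 4, 7, 3 and 0 times at P0, in the same order of litters. The groups again did not overlap. The mean was 124 ± 123 CPM at E12.5 against 0.495 ± 0.425 CPM at P0, a log2 difference of -6.50 ± 1.18 and a ratio of summed counts of 214 (128 to 393). In bulk samples such as these, fewer cells of a type and less RNA per cell cannot be told apart.

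The 2 neighbours did not keep 1 ratio across E12.5 litters. There were 1.70 Afp reads per Alb read in NDP10.2 (95% exact interval 1.56 to 1.86), 2.55 in NPD3 (1.84 to 3.57), 4.74 in NPD4 (4.16 to 5.42) and 1.37 in NPD9.2 (1.26 to 1.48). The interval of NPD4 lay above those of the other 3 litters. These intervals compare the libraries and cover counting error only.

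The apolipoprotein genes were also low at P0, by different amounts. Apoa1, the main protein of high-density lipoprotein, was counted 208, 27, 158 and 197 times at E12.5 and 2, 3, 0 and 0 times at P0. Its mean was 30.3 ± 21.7 CPM at E12.5 against 0.186 ± 0.220 CPM at P0, a log2 difference of -5.59 ± 0.81, with a ratio of summed counts of 159.8 (68.1 to 494). Even the lowest E12.5 litter, NPD3 at 5.23 CPM, was above the highest P0 litter, NPD27 at 0.430 CPM.

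Apoa2, the second protein of high-density lipoprotein, was counted 110, 13, 42 and 102 times at E12.5 and 2, 12, 10 and 2 times at P0. Its mean was 14.6 ± 12.5 CPM against 0.876 ± 0.694 CPM, a log2 difference of -3.26 ± 0.92 and a ratio of 13.9 (9.29 to 21.7). The groups did not overlap, but NPD27 at 1.72 CPM came near NPD3 at 2.52 CPM.

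Apob, the structural protein of low-density and very low-density lipoprotein, was counted 109, 14, 141 and 99 times at E12.5 and 15, 10, 8 and 5 times at P0. Its mean was 17.3 ± 10.5 CPM against 1.37 ± 0.712 CPM, a log2 difference of -3.09 ± 0.79 and a ratio of 12.9 (9.25 to 18.6). In NPD3 and in NPD26 Apob was at 2.71 and 2.34 CPM, so the groups barely separated. Apob still had 5 or more counts in each P0 litter.

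Ttr, which encodes the carrier transthyretin, was counted 81, 2, 72 and 63 times at E12.5 and 0, 0, 1 and 1 times at P0. Its mean was 10.9 ± 8.19 CPM at E12.5 against 0.0669 ± 0.0785 CPM at P0. The ratio of summed counts, which rests on 2 counts at P0, was 147.7 with an interval of 40.4 to 1227. The log2 difference of -4.13 ± 1.11 is held down by the prior count of 2 that is added before the log is taken. Every E12.5 litter was above every P0 litter, but NPD3 at 0.388 CPM was under its floor of 0.582 CPM. With 2 counts against at most 1, NPD3 cannot be told apart from the P0 litters for this gene.

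Rbp4, which encodes the plasma carrier of retinol, overlapped between the stages. It was counted 453, 301, 143 and 246 times at E12.5 and 409, 172, 181 and 496 times at P0. The mean was 60.5 ± 36.4 CPM at E12.5 against 46.1 ± 27.2 CPM at P0, a log2 difference of -0.34 ± 0.72, which is smaller than its standard error. The lowest E12.5 litter was NPD4 at 17.2 CPM and the highest was NDP10.2 at 106 CPM, while P0 ran from 21.2 CPM in NPD28 to 74.7 CPM in NPD30. Rbp4 was the member of highest mean level at P0, where no other member had more than 15 counts in any litter.

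The fibrinogen chains had few reads at both stages. Fgg, the chain gene outside the set, was counted 2, 2, 20 and 12 times at E12.5. At P0 it was counted 8, 10, 0 and 0 times, so its stages overlapped. Fga, the alpha chain, was counted 31, 2, 25 and 24 times at E12.5 and 0, 14, 0 and 0 times at P0. All of its P0 counts came from NPD27, at 2.01 CPM, and this put 1 P0 litter above the E12.5 litter NPD3 at 0.388 CPM. The means were 4.13 ± 3.06 CPM and 0.501 ± 1.0 CPM, a log2 difference of -2.63 ± 1.06.

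Fgb, the beta chain, was counted 20, 10, 26 and 35 times at E12.5 and 4, 1, 2 and 1 times at P0. Its means were 4.58 ± 2.88 CPM and 0.288 ± 0.228 CPM, a log2 difference of -2.90 ± 0.48 and a ratio of 15.4 (7.50 to 36.8). The groups did not overlap. The mean of the other 3 E12.5 litters was 2.81 times the NPD3 level.

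Ahsg was counted 44, 0, 5 and 37 times at E12.5 and 3, 5, 0 and 0 times at P0. NDP10.2 and NPD9.2 held nearly all of its E12.5 counts, at 10.3 and 9.04 CPM, whereas NPD4 was at 0.601 CPM and NPD3 was at 0 counts, which allows up to 0.582 CPM. The groups overlapped, with means of 4.99 ± 5.44 CPM and 0.296 ± 0.357 CPM and a log2 difference of -2.12 ± 1.33. Exons of Ahsg overlap those of an antisense gene, Gm30505, and no source used here gives the strand setting of the counting, so reads of the pair cannot be told apart.

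**Figure D1:**
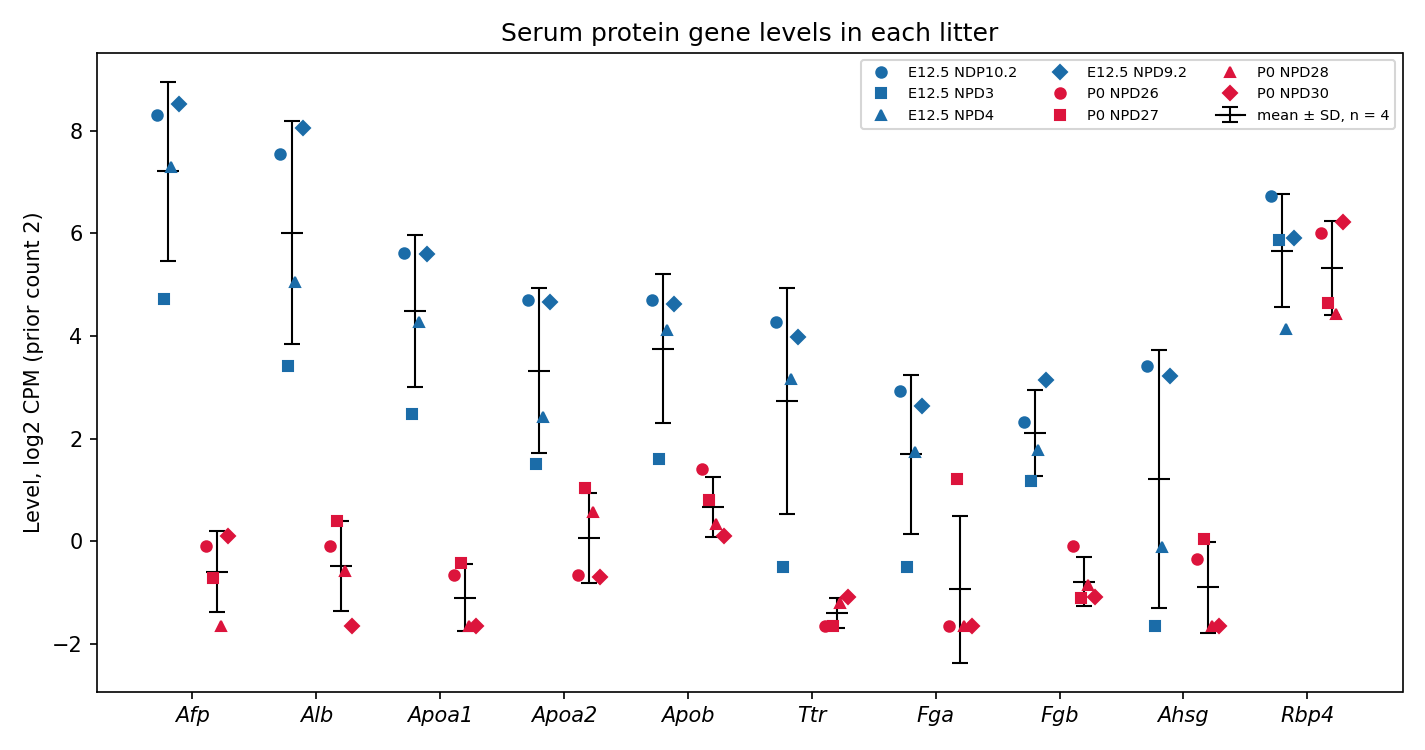
Level of each of the 10 serum protein genes in log2 CPM (vertical axis, prior count 2) in the 4 E12.5 litters (blue) and 4 P0 litters (red), with bars at mean ± SD (n = 4). Genes other than Rbp4 are low in the P0 litters, Rbp4 overlaps, and NPD3 (blue square) is the lowest E12.5 litter in 9 of the 10 genes.

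Across the set, the median log2 difference was -3.18, against 0.20 over all 32299 genes with a count. All 10 differences were negative, as were those of 37.4% of genes with a count. In 7 of the 10 genes every P0 litter was below every E12.5 litter, the exceptions being Fga, Ahsg and Rbp4. The 7 include Ttr, for which NPD3 was under the floor. Of all genes with a count, 7.78% showed such a separation. As the genes were chosen on this contrast, nothing is read from these counts.

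Levels can be compared between genes only per length of exon. At E12.5 the order, in mean CPM per kb, was Afp at 64.2 ± 46.1, Alb at 53.0 ± 52.7, Rbp4 at 45.0 ± 27.1, Apoa2 at 27.1 ± 23.3, Apoa1 at 24.5 ± 17.6 and Ttr at 9.15 ± 6.90 (SD, n = 4). Ahsg at 2.27 ± 2.48, Fga at 1.37 ± 1.02, Apob at 1.24 ± 0.751 and Fgb at 1.20 ± 0.756 CPM per kb followed. Each neighbour in this order overlapped the next in its range over litters, so no step between neighbours exceeded the spread. At P0 Rbp4 at 34.3 ± 20.2 CPM per kb and Apoa2 at 1.63 ± 1.29 CPM per kb led, and no other member had a mean above 0.211 CPM per kb.

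The E12.5 litters differed widely in the total of the 9 genes other than Rbp4. Summed reads were 2755 in NDP10.2, 256 in NPD3, 2037 in NPD4 and 3145 in NPD9.2, or 0.0607%, 0.00503%, 0.0284% and 0.0708% of the reads on genes. At P0 the same sums were 34, 54, 24 and 14 reads. NPD3 was thus the lowest E12.5 litter and still above all P0 litters. NDP10.2 and NPD9.2, highest in these sums, were lowest of all litters in the share of tallied reads on genes. Their shares were 22.6% and 24.6%, against 30.9% to 34.8% in the other litters. They also had the highest ambiguous shares, and the part of these library differences in the sums was not tested.

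The low level in NPD3 was not equal for all members. The mean of the other 3 E12.5 litters was 10.7 times the NPD3 level for Afp, 15.8 times for Alb, 7.38 times for Apoa1, 7.37 times for Apoa2 and 8.19 times for Apob. The same ratio was 37.0 for Ttr and 13.9 for Fga, each on 2 counts in NPD3, and 1.05 for Rbp4. Rbp4 therefore differed from the rest in NPD3 as well as at P0.

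NPD4 stood apart in another way. The mean of NDP10.2 and NPD9.2 was 6.92 times the NPD4 level for Alb, 5.02 times for Apoa2 and 16.1 times for Ahsg, but 2.19 times for Afp, 2.55 times for Apoa1 and 1.47 times for Apob. Alb made up 28.9%, 20.7%, 13.4% and 34.8% of the reads of the 9 genes in NDP10.2, NPD3, NPD4 and NPD9.2, while Afp made up 49.2%, 52.7%, 63.6% and 47.5%. In NPD4 the share of Afp was the highest and that of Alb the lowest.

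**Figure D2:**
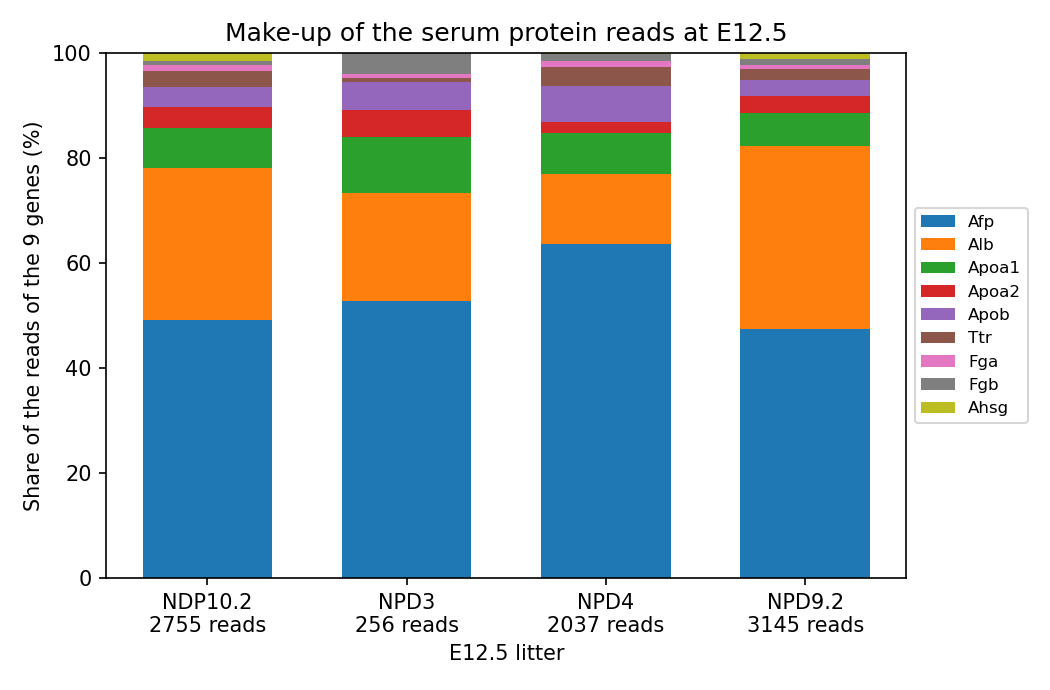
Share of the reads of the 9 genes other than Rbp4 (vertical axis, percent) taken by each gene in the 4 E12.5 litters (horizontal axis, with the number of reads). Afp takes the largest share in each litter, from 47.5% in NPD9.2 to 63.6% in NPD4, and Alb is next, from 13.4% to 34.8%.

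Patterns over the 8 litters were compared by the root mean square difference of log2 CPM after each gene was centred on its own mean, where a smaller value means a more similar pattern. Among the members, Alb was close to Apoa1 (0.73), Apob to Fgb (0.61) and Fga to Apoa2 (0.78), and Rbp4 was far from Afp (3.92). The 5 tested genes outside the set nearest to Alb were Gabrp (0.94), the embryonic globin gene Hbb-bh0 (0.99), Hand1 (1.10), Dlx2 (1.14) and the embryonic muscle myosin Myh3 (1.15). Gabrp was at 38.7, 23.5, 16.1 and 112 CPM in the E12.5 litters and at or below 0.716 CPM in the P0 litters, so it shared the high NPD9.2 value but not the low NPD3 value of Alb.

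The gene nearest to each other member was Hbb-bh1 for Afp (1.37), Hand1 for Apoa1 (0.62), Fgfr4 for Apoa2 (0.64), Sema3g for Apob (0.47) and Ambp for Ttr (1.09). It was Cited1 for Fga (0.62), Kdf1 for Fgb (0.27), the adult globin gene Hbb-bs for Ahsg (0.78) and Lypd1 for Rbp4 (0.24). Only Ambp, the precursor of alpha-1-microglobulin, is itself a plasma protein gene. These distances describe 8 libraries that share their contrast of stage, and no test was run on them.

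Other genes for plasma proteins moved in both directions between the stages. Of 43 listed, 21 had enough counts to be tested, and edgeR's quasi-likelihood test with Benjamini-Hochberg adjustment called 10 (47.6%), of which 5 were lower and 5 higher at P0. Over all 15467 genes tested, 27.9% were called at an adjusted p below 0.05, 1853 lower and 2468 higher. The remaining 11 plasma protein genes were not called, and the median log2 fold change of the 21 was -0.88. The 5 lower calls became 3 without NPD9.2, without NPD26 or without NPD28, and 2 without NDP10.2 and NPD9.2 together.

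Serpina6, the corticosteroid-binding globulin, was at 68.0, 2.71, 4.69 and 57.7 CPM in the E12.5 litters and between 0 and 2.97 CPM at P0, a log2 fold change of -4.37 ± 1.17 (SE, adjusted p = 0.0193 by edgeR). Its high litters were NDP10.2 and NPD9.2, and NPD3 was below the highest P0 litter. Serpina1a, an alpha-1-antitrypsin gene, was lower at P0 (log2 fold change -4.50, adjusted p = 0.00583), as were Serpina1b (-1.60, adjusted p = 0.0433), a near-identical copy with which it can share reads, Apom (-2.42, adjusted p = 0.0224) and Ambp (-8.89, adjusted p = 0.00507). All 5 were picked for naming after their values were seen. With single litters left out, Serpina6 lost its call without NPD28 or NPD30 (adjusted p = 0.0525 and 0.0670), Apom without NPD9.2, NPD26 or NPD28 (0.0576 to 0.0761) and Serpina1b without NDP10.2, NPD9.2, NPD26, NPD27 or NPD28 (0.0951 to 0.112). Without NDP10.2 and NPD9.2 together, the change of Serpina6 was -1.26 (adjusted p = 0.443). Ambp had 168 counts at E12.5 and none at P0, so it was at least 75.9-fold higher at E12.5 with 3 counts over the P0 group as the floor.

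The genes called higher at P0 were Apoe, Serpina1e, Hp, C3 and Ang. Apoe, a lipoprotein component that macrophages and many other cells also make, was at 29.5 to 138 CPM at E12.5 and at 3318, 3434, 999 and 81.6 CPM in the P0 litters in the order above, a log2 fold change of 4.71 (adjusted p = 0.00722 by edgeR). NPD30 fell within the E12.5 range. Hp, which encodes haptoglobin, rose by 6.14 (adjusted p = 0.00290) and complement C3 by 3.38 (adjusted p = 0.0150) on the log2 scale.

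Serpina1e rose by 5.72 (adjusted p = 0.000492) and Ang by 2.99 (adjusted p = 0.0185), and Ang was named after its value was seen. Ang lost its call without NDP10.2, NPD3 or NPD27 (adjusted p = 0.0509 to 0.0582) and C3 without NPD4 (adjusted p = 0.0528). The summed level of 10 leukocyte markers was 62.0 to 169 CPM at E12.5 and 4860, 5727, 8297 and 953 CPM in the P0 litters, all 10 being called higher at P0. The part of leukocytes in the rise of Apoe, Hp and C3 was not tested.

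The 22 plasma protein genes that did not pass the filter on low counts lay in both directions, and those given here were named after their values were seen. Plg, the precursor of plasmin, had 105 counts at E12.5 and 1 at P0, a ratio of 142 (24.98 to 5671, counting error only). Gc, the vitamin D carrier of the albumin family, had 28 and 1, a ratio of 37.9 (6.27 to 1551). Apoh had 23 and none, which makes it at least 10.4-fold higher at E12.5 against a floor of 3 counts over the P0 group. Plg, Gc and Apoh were all at 0 in NPD3. Afm, the gene beside Afp, had 15 counts at E12.5 and 10 at P0. In the other direction, Fetub, Apoa5, F9 and Apoc3 had no counts at E12.5 and 17, 12, 11 and 8 at P0, and Orm1 had 1 count at E12.5 and 36 at P0. None of Fetub, Apoa5, F9 and Apoc3 had more than 8 counts in a P0 litter, and each was at or under the floor of 3 in some. No counts at E12.5 and some at P0 were also seen in 5 of 19 liver enzymes and surface proteins. The same held for 3 of 10 gut endoderm markers, so no rise is read from these genes.

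**Figure D3:**
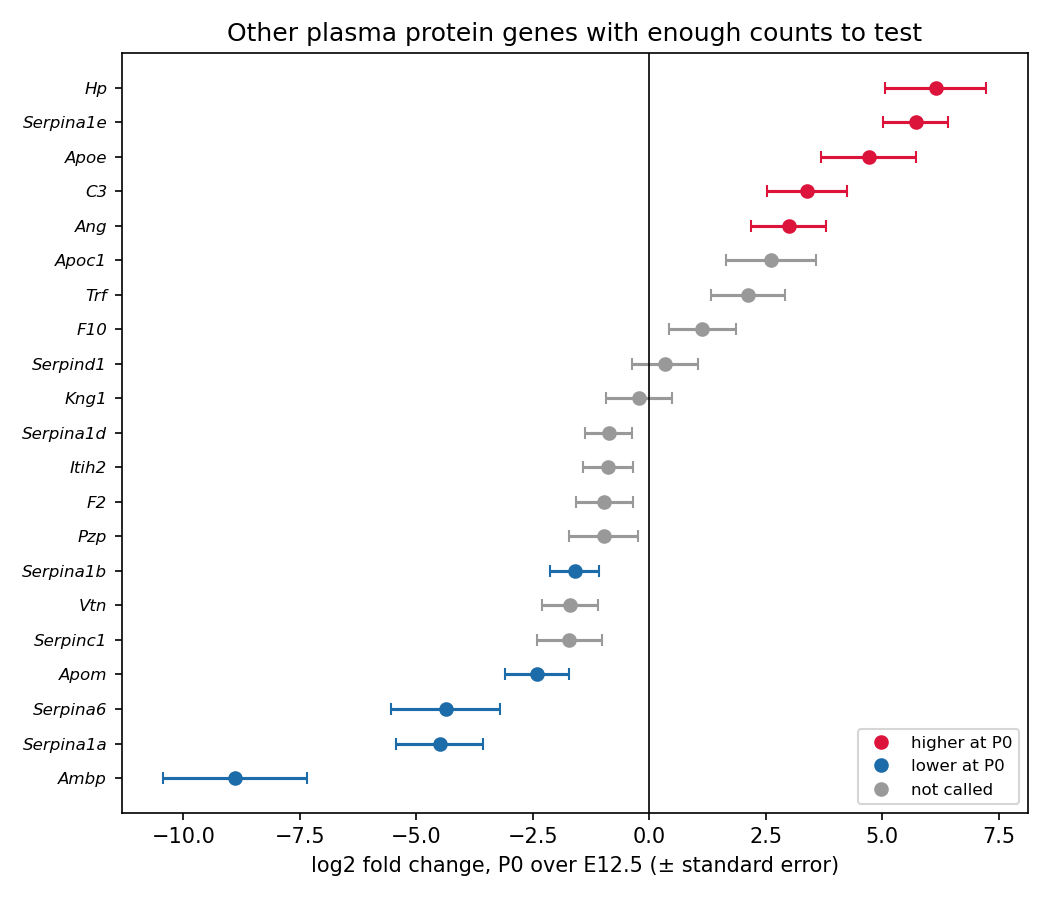
Log2 fold change, P0 over E12.5 (horizontal axis), with its standard error for the 21 plasma protein genes outside the set that passed the filter (vertical axis). The 5 genes called lower at P0 (blue) run from -8.89 for Ambp to -1.60 for Serpina1b, the 5 called higher (red) from 2.99 for Ang to 6.14 for Hp, and 11 were not called (grey).

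Genes of liver cells other than plasma protein genes were mostly below 1 CPM at E12.5. Of 19 liver enzymes and surface proteins, 13 had a mean below 1 CPM at E12.5 and 5 were at 0 counts in each of the 4 E12.5 litters. Their summed level was 25.5 to 33.2 CPM at E12.5 against 19.2 to 36.3 CPM at P0, so it did not follow the serum protein genes across stages or in NPD3. Of the 3 tested, Arg1, the last enzyme of the urea cycle, was called lower at P0 (log2 fold change -1.58, adjusted p = 0.0457 by edgeR), whereas Mttp, which loads lipid onto Apob, was not called (-0.41, adjusted p = 0.475), nor was Ass1, another urea cycle enzyme (-0.51, adjusted p = 0.609). Arg1 lost its call without NPD3, NPD4, NPD27, NPD28 or NPD30 (adjusted p = 0.0766 to 0.148). It was highest in NPD3, at 14.7 CPM, the litter in which the serum protein genes were lowest.

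Transcription factors that act in liver were mixed. Of 16 listed, 10 were tested, 4 were called lower at P0 and 2 higher. Hnf4a, a master regulator of hepatocyte genes, was at 0.703, 0.776, 0.961 and 3.42 CPM in the E12.5 litters, on 3 to 14 counts. Its levels in the P0 litters were 1.56, 2.44, 0.585 and 1.66 CPM. It was not called (log2 fold change 0.12, adjusted p = 0.922 by edgeR) and was chosen for naming after its values were seen. Foxa1, which notochord also expresses, fell by 2.23 (adjusted p = 0.00682) and Prox1 fell by 2.13 (adjusted p = 0.0159) on the log2 scale. Gata4 fell by 4.39 (adjusted p = 0.00423) and Gata6 fell by 3.67 (adjusted p = 0.00556), both endoderm and heart regulators named after their values were seen. Without NDP10.2 and NPD9.2 together, Gata4, Gata6 and Prox1 were not called (adjusted p = 0.0580, 0.0632 and 0.0644). Cebpa rose by 4.21 (adjusted p = 0.00247) and Hhex by 3.65 (adjusted p = 0.00791), and both were lowest among P0 litters in NPD30. NPD30 was also the P0 litter lowest in summed leukocyte markers, and the part of leukocytes in both rises was not tested.

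The postnatal repressors of Afp in liver, Zhx2 and Zbtb20, were not called. Zhx2 was at 15.5 to 29.1 CPM at E12.5 against 17.5 to 29.2 CPM at P0 (log2 fold change -0.02, adjusted p = 0.962 by edgeR). Zbtb20 was at 200.4 to 271 CPM and 153 to 470 CPM (log2 fold change 0.24, adjusted p = 0.657). Both signs turn under other settings, so neither gene has a direction here.

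Markers of the visceral yolk sac summed to 154 to 271 CPM at E12.5 and 229 to 871 CPM at P0. Most of the E12.5 sum was Dab2, an endocytic adaptor found in many cell types, at a mean of 175 ± 45.5 CPM (log2 fold change 1.11, not called, adjusted p = 0.254 by edgeR, and called without NPD30, adjusted p = 0.0178), followed by Cubn at 9.31 ± 0.919 CPM and the endocytic receptor gene Lrp2 at 8.85 ± 4.23 CPM. Of the 12 yolk sac genes, 6 had a mean below 1 CPM at E12.5, and of the 7 tested 1 was called lower at P0 (Cited1, -3.02, adjusted p = 0.0285) and 2 higher. Those 2 were Cubn, the endocytic receptor cubilin, which rose by 3.23 (adjusted p = 0.00258), and Muc13, which rose by 5.63 (adjusted p = 0.00123) from 1 count in all at E12.5 and was named after its value was seen. Cited1 lost its call without NDP10.2, NPD9.2, NPD26 or NPD30 (adjusted p = 0.0557 to 0.0784). All 10 gut endoderm markers had a mean below 1 CPM at E12.5 and none could be tested. Of 10 choroid plexus genes, a brain tissue rich in Ttr, 5 had a mean below 1 CPM at E12.5. Of 5 tested, 3 were called higher at P0, led by Aqp1 (3.62, adjusted p = 0.000184), and 2 were not called. Lmx1a, the gene of highest mean level on this list, was not called (-0.27, adjusted p = 0.744). Foxj1, 1 of the 3, lost its call without NPD3, NPD26 or NPD28 (adjusted p = 0.0501 to 0.0711). Ttr was at 0 or 1 count in each P0 litter.

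Messages of blood cells were high in the E12.5 litters. The summed level of the embryonic globin genes Hbb-y, Hba-x and Hbb-bh1 was 16021, 8068, 8506 and 32605 CPM at E12.5 against 2.11 to 7.02 CPM at P0, and all 3 were called lower. The other red cell genes summed to 9000, 2173, 2085 and 17113 CPM at E12.5 against 550 to 1446 CPM at P0. Of the 12 tested, 3 were called lower, and 1, the red cell transcription factor Klf1, was called higher (log2 fold change 1.43, adjusted p = 0.0354 by edgeR). Klf1 lost that call without any 1 of the litters NDP10.2, NPD3, NPD4, NPD27, NPD28 and NPD30 (adjusted p = 0.0621 to 0.105). The litters NDP10.2 and NPD9.2, highest in the 9 serum protein genes, were also highest in red cell genes, but NPD3 and NPD4, which had near-equal red cell levels, differed widely in the serum protein genes. The part of red cells in the serum protein levels was not tested.

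Markers of tissue beside the notochord were present at E12.5. The sclerotome, the somite tissue that forms vertebrae, had a summed marker level of 134 to 188 CPM at E12.5 against 7.72 to 22.5 CPM at P0, with all 7 genes tested called lower. Its level in NPD3 was within the range of the other E12.5 litters, unlike that of the 9 serum protein genes. Endothelial markers summed to 95.4 to 191 CPM at E12.5 against 87.7 to 155 CPM at P0, with 2 of 8 called lower and 1 higher. Notochord markers summed to 2105 to 4759 CPM and 2084 to 7411 CPM, with 2 of the 9 tested called lower and 2 higher.

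**Figure D4:**
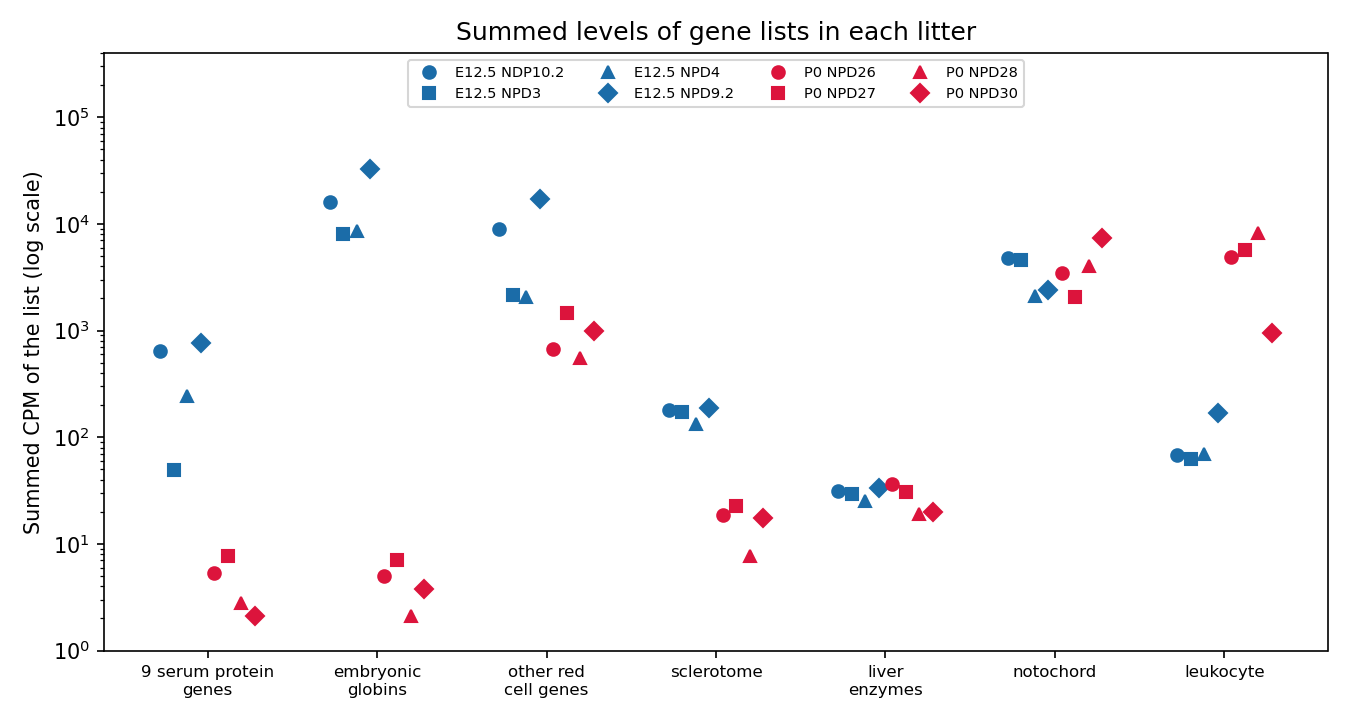
Summed CPM (vertical axis, log scale) of the 9 serum protein genes other than Rbp4 and of 6 marker lists in the 4 E12.5 litters (blue) and 4 P0 litters (red). NPD3 (blue square) is low in the serum protein genes but not in sclerotome or liver enzyme genes, and NPD30 (red diamond) is low in leukocyte genes.

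Genes that receive or handle what these proteins carry were read at both stages. Of 13 listed, 12 were tested, 3 were called lower at P0 and 4 higher. Those lower belong to retinoid handling. Stra6, the cell surface receptor for Rbp4, was at 22.3 to 28.8 CPM at E12.5 and 3.91, 3.58, 1.40 and 3.77 CPM at P0, a log2 fold change of -2.98 (adjusted p = 0.000363 by edgeR). The intracellular carriers of retinoic acid fell too, Crabp1 by 5.58 (adjusted p = 0.000551) and Crabp2 by 3.41 (adjusted p = 0.000757) on the log2 scale. Stra6, Crabp1 and Crabp2 were named after their values were seen, and for each of them the stages did not overlap, whereas Rbp4 overlapped.

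Genes called higher at P0 handle lipoproteins and albumin. Fcgrt, whose protein rescues albumin and antibodies from breakdown, rose by 2.78 (adjusted p = 0.0134 by edgeR) on the log2 scale. Scarb1, the receptor for high-density lipoprotein, rose by 1.53 (adjusted p = 0.00921), and the cholesterol exporters Abca1 and Abcg1, which pass cholesterol to Apoa1 or to high-density lipoprotein, rose by 2.76 (adjusted p = 0.0148) and 4.09 (adjusted p = 0.00422). Abca1 was at 573, 741, 400.3 and 33.9 CPM in the P0 litters and 54.1 to 78.4 CPM at E12.5, so NPD30 was below every E12.5 litter. In NPD30 Abcg1 at 5.42 CPM, Fcgrt at 44.7 CPM and Scarb1 at 43.4 CPM were each within the range of the E12.5 litters. Without NDP10.2 and NPD9.2 together, Abca1 and Abcg1 were not called (adjusted p = 0.103 and 0.0566). Lrp1, a receptor for Apoe remnants with the highest mean level on the list, was not called (0.31, adjusted p = 0.561). NPD30 was the lowest P0 litter for Fcgrt, Scarb1, Abca1 and Abcg1, as it was for the summed leukocyte markers, and the part of leukocytes in these values was not tested.

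**Figure D5:**
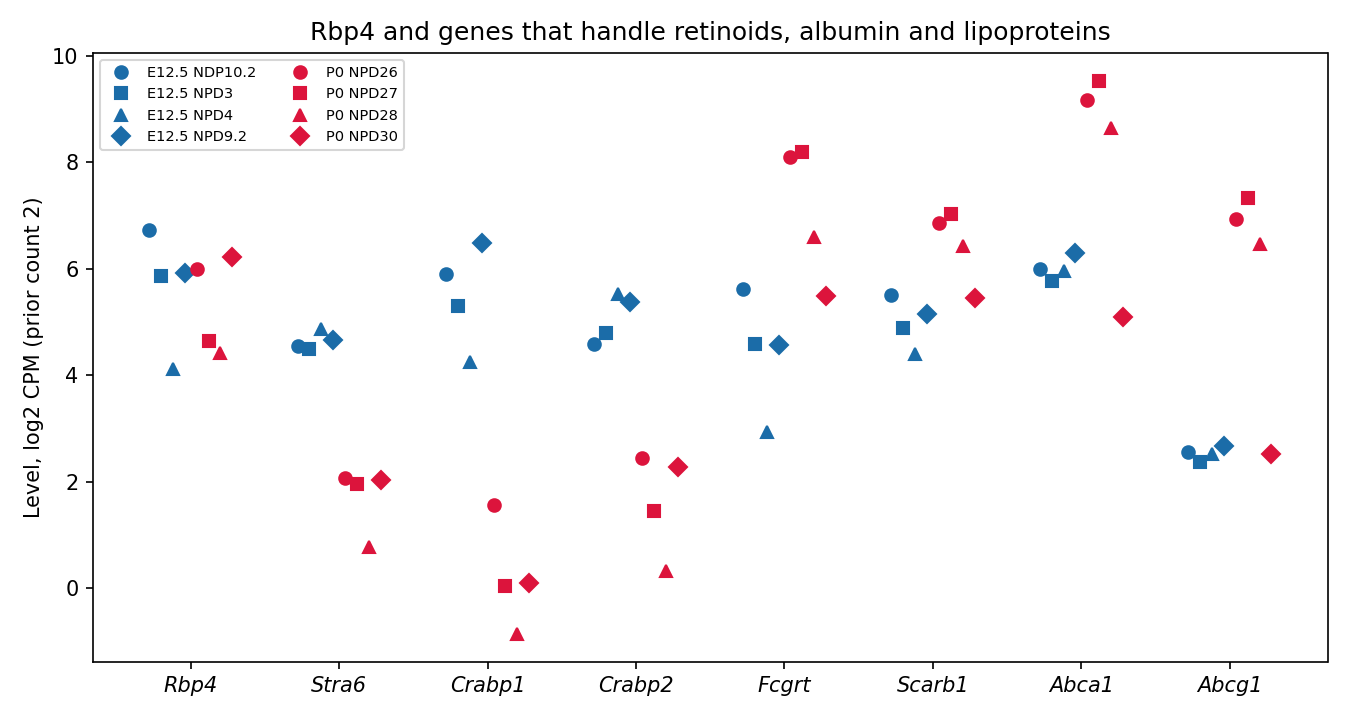
Level in log2 CPM (vertical axis, prior count 2) of Rbp4 and of 7 genes that take up or handle retinoids, albumin and lipoproteins in the 4 E12.5 litters (blue) and 4 P0 litters (red). Rbp4 overlaps between stages, Stra6, Crabp1 and Crabp2 are lower at P0 in every litter, and in the other 4 genes NPD30 (red diamond) is the lowest P0 litter.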

How the data were processed

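RNA of 4 E12.5 and 4 P0 litters was sequenced as single-end reads. The authors aligned reads to GRCm38.p3 with STAR and deposited raw, unnormalized read counts, made with htseq-count for every Gencode gene in every sample. The submitters' processing notes give STAR as 2.4.0j and also list CASAVA 1.8.2, bcl2fastq, edgeR and a second build, mm9, without roles. Tallies that name no gene (no feature, ambiguous and the like) were left out of library sizes, and 22.6% to 34.8% of reads tallied were on genes. The strand setting of the counting is not given in the sources used here. The members and lists were chosen with earlier results of these data known. Symbols and positions come from a later Gencode annotation on GRCm38, in which 42462 of 43346 identifiers were matched.

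Counts were analysed in R 4.3.3 with edgeR 4.0.16 (TMM, filterByExpr with minimum count 10 and minimum total 15, robust quasi-likelihood F-test, stage as the only term, all 8 samples). The filter left 15467 genes, over which p-values were adjusted by the Benjamini-Hochberg method. Members received no test. Log2 CPM uses a prior count of 2, and a log2 difference is the difference of stage means of log2 CPM. Ratios of summed counts are scaled to total counts, with exact binomial intervals at 95%. In simulated data for this contrast with 200 genes changed 4-fold among 15467, the test recovered 75.5%, and 4.43% of its calls were unchanged genes.

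Named genes were the 10 members, up to 4 of highest mean CPM from each other list, genes called against most of their list, the genes nearest in pattern, and Hbb-y, Hba-x, Hbb-bh1, Shh and T. Alternatives were DESeq2 1.42.0, limma 3.58.1 (voom), other scaling, filters and prior counts, genes of globins and mitochondria left out, and litters left out. Some genes of the lists and 1 motif are not reported here. No library was dropped from the results reported.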

Additional observations from a re-analysis of the deposited data

Results flagged for a closer look

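In 5 of the 110 groups of 4 litters that were screened, 1 per gene and stage, a single litter lay apart from the other 3 by more than Dixon's 95% limit. Chance alone gives this in about 1 of 20 groups.

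Fga at P0 was at a log2 CPM of 1.22 in NPD27 and at -1.66, which stands for 0 counts, in each of the other 3 litters. Hp at P0 was at 7.76 in NPD28 and 4.76 to 5.08 in the others. Hhex at P0 was at 2.36 in NPD30 and 4.70 to 5.05 in the others. Muc13 at E12.5 was at -1.19 in NPD4, from 1 count, and -1.66 in the others. Stra6 at P0 was at 0.78 in NPD28 and 1.96 to 2.08 in the others.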

How the results depend on the processing

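No paired analysis was possible because the litters of the 2 stages are different and their numbers do not match between stages. Of all genes, 4321 were called (1853 lower and 2468 higher at P0). Without NDP10.2 and NPD9.2 together, 2581 were called (1088 lower and 1493 higher), and 2 other plasma protein genes were called lower. This setting has fewer samples, and whether that or the 2 litters sets the drop was not tested. With each litter left out in turn, 3612 to 4529 genes were called (1512 to 1943 lower, 2084 to 2586 higher). The same settings gave 3 to 5 plasma protein genes lower, 4 to 7 higher, and a median log2 difference of the 10 members of -3.88 to -2.86. That median was -4.06 in DESeq2, -3.83 in limma-voom, -2.31 without NDP10.2 and NPD9.2, and -3.67 without NPD3 and NPD30, the last chosen after the data were seen. Genes that were not called turned sign in places. Zhx2 was at 0.042 in limma-voom, and without NDP10.2 and NPD9.2 Zhx2 was at 0.22, Kng1 at 0.41, Mttp at 0.010 and Hbb-bs at 0.22. With single litters left out Zhx2 ran from -0.18 to 0.097, Kng1 from -0.72 to 0.093 and Zbtb20 from -0.23 to 0.44. Zbtb20 was at -0.25 without NPD3 and NPD30. In limma-voom Serpina6, Abca1, Abcg1, Apom and Arg1 were not called (adjusted p = 0.0584 to 0.221), nor without the filter were Serpina6, Abca1, C3, Fcgrt and Hbb-bt (0.0639 to 0.105). Dab2 was called without NPD30 (adjusted p = 0.0178). Depth limits the P0 values of 9 members, which rest on 0 to 15 counts a litter.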

Other observations

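The alpha-1-antitrypsin genes, near-identical copies, differed in which copy led. Serpina1a was at 46.2, 16.1, 10.8 and 6.84 CPM in the E12.5 litters NDP10.2, NPD3, NPD4 and NPD9.2, and at most at 1.96 CPM at P0. Serpina1e was at 0.703 to 8.31 CPM at E12.5 and at 336, 123, 224 and 193 CPM at P0 (NPD26, NPD27, NPD28, NPD30). Serpina1b was at 9.31 to 24.6 CPM at E12.5 and 2.15 to 10.7 CPM at P0. Because these copies share sequence, which copy the reads came from is uncertain, and the summed level of the family was not tested. Serpina1a was highest in NDP10.2 but lowest in NPD9.2, the 2 litters that were alike in Alb.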
